A study of Rattus norvegicus with 7 samples.

Results

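The genes described here build the machinery that brings new proteins into the endoplasmic reticulum (ER) and carries them between the ER and the Golgi apparatus. They were chosen by symbol among the probe sets with 1 gene symbol: the subunits of the signal recognition particle and its receptor, the Sec61 channel with Sec62 and Sec63, the translocon-associated protein (TRAP) complex, signal peptidase, the COPII and COPI coats, the Sec22 proteins, the p24 (Tmed) proteins, the lectin receptors Lman and the KDEL receptors. This choice took 91 of 31099 probe sets on the array, and they stood for 60 of 14218 genes named there. A probe set is a group of short oligonucleotides that reads 1 transcript, and its signal is given on the log2 scale.

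ROE2 cells are an oral epithelial line from the tongue of fetal transgenic Wistar rats with a transgene for a temperature-sensitive large T-antigen of simian virus 40, and every group shared this genotype. Cells received 2 mM sodium fluoride (NaF) for 3, 6 or 12 h or the water vehicle, which was sampled at 0, 3, 6 and 12 h. Per condition, RNA from 3 independent experiments was combined and hybridized to 1 Affymetrix rat expression array, which gave 7 arrays and no replicate of any condition. The line stands for 1 epithelial cell type that divides under the viral oncoprotein, without the connective tissue of the mouth.

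Proteins destined for secretion or for membranes carry a signal sequence, which the signal recognition particle binds as it leaves the ribosome. The ribosome is then docked at the Sec61 channel, through which the chain enters the ER, and signal peptidase removes the signal. Folded cargo leaves in vesicles coated with COPII, and COPI-coated vesicles bring receptors and escaped ER proteins back from the Golgi. Epithelial cells use this route for adhesion proteins, receptors and secreted proteins.

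The medians of the 7 arrays over all probe sets lay between 5.32 and 5.35, and pairs of vehicle arrays correlated at 0.9961 to 0.9987. The epithelial label fitted the signals, since 10 of 12 epithelial markers passed the filter on dim probe sets and the keratin gene Krt14 had a vehicle mean of 14.11. Krt18 and Krt19, keratins of simple epithelia, were dim, with 2.98 and 3.06, whereas the keratin gene Krt8 of the same list had 9.84. Of other cell types, 1 of 10 fibroblast markers (Vim, with a vehicle mean of 11.35) and none of 7 skeletal muscle, 6 leukocyte and 4 endothelial markers passed. Of the 10 epithelial markers tested, 7 (70.0%) were called lower at 12 h of NaF and 1 (10.0%) higher, against 33.0% and 28.8% of all genes tested. At 12 h of NaF, Vim was 1.17 lower than in the vehicle array of that time. The log2 of the summed signal of the fibroblast list was 11.40 to 11.48 in vehicle and 10.33 to 11.43 in NaF, with the lowest at 12 h. Vim carried this sum, since the other genes of the list had vehicle means of 2.17 to 5.12. The epithelial sum was 15.63 to 15.68 in vehicle and 15.39 to 15.63 in NaF, and the skeletal muscle sum 7.82 to 7.96 and 7.45 to 7.94. The leukocyte sum was 6.58 to 6.90 and 6.94 to 7.02, and the endothelial sum 5.25 to 5.31 and 5.21 to 5.26. No gene of the marker lists was at 0. In bulk RNA, fewer cells of a type and less RNA per cell cannot be told apart. The vehicle array of 3 h stood apart in the beta-actin control probes, with a 3' signal 2.83 above the 5' signal, against 1.53 to 1.98 in the other vehicle arrays and 1.77 to 2.39 in the NaF arrays. The part of these differences in the results below was not tested.

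Each probe set with a mean signal of 7 or more over the 7 arrays was tested, which left 10707 probe sets. Of the transport genes, 74 of 91 probe sets and 53 of 60 genes passed, from a mean of 7.02 upward, and the brightest left out had 6.70. The dimmest to pass, a probe set of Ssr3, had a vehicle mean of 6.83. It passed through its NaF signals of 7.27 at 6 h and 7.79 at 12 h, and its 12 h call is among those counted below. The 7 genes without a tested probe set were Copz2, Lman1, Sec16b, Sec22c, Tmed5, Tmed6 and Tmed8. Limma set each NaF array against the vehicle mean over 4 arrays, with the Benjamini-Hochberg adjustment over all 10707 and an adjusted p under 0.05 for a call. The p-value thus measures the spread among pooled vehicle arrays of different times, and a single NaF array is taken to vary as they do. A same-time change is the log2 signal in NaF minus that of the vehicle array of the same time, 1 array against 1 array, and carries no test. A gene is represented by its brightest tested probe set.

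Transport genes moved late and mostly upward. At 3 h of NaF, 0 of 74 probe sets were called higher and 2 lower, while 2.76% of all tested probe sets were called higher and 6.29% lower. At an unadjusted limma p under 0.05, 4 were higher and 3 lower, while 9.77% and 15.2% of all tested probe sets were. At 6 h, 12 were higher and 7 lower, against 16.7% and 22.2% of all tested probe sets. At 12 h, 43 (58.1%) were higher and 10 (13.5%) lower, against 28.9% and 31.7%. The share of transport genes called higher was thus near that of the array at 6 h and above it at 12 h.

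Counted by gene, 30 of 53 rose at 12 h (56.6%, against 28.8% of 9065 genes tested on the array), 9 fell (17.0%, against 33.0%) and 14 were not called. Of the 30, 6 had also been higher at 6 h, 23 had not been called then, and 1, Sec24d, had been lower. The same split over the array is not given, so it is not read as particular to these genes. The median same-time change over the 74 probe sets was 0.00, 0.05 and 0.34 at 3, 6 and 12 h, while that of all tested probe sets was -0.03, 0.00 and -0.00. At 12 h the same-time changes of the transport genes ran from -0.50 to 1.38. The change was highest at 12 h of the 3 times in 52 of 74 probe sets (4568 of 10707 over the array). On the NaF array of 12 h, 58 of the 74 (78.4%) lay above and 15 (20.3%) below all 4 vehicle arrays, and over the array 41.0% and 42.8% of tested probe sets did so.

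**Figure D1:**
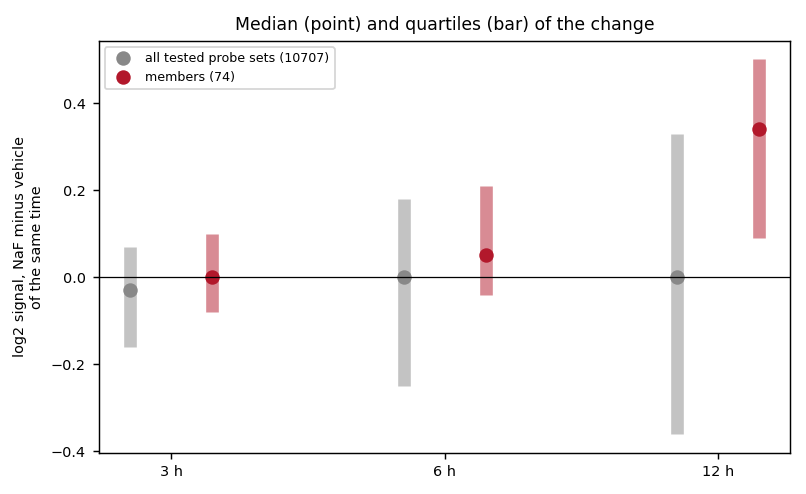
Same-time changes (NaF minus vehicle, log2, vertical axis) at 3, 6 and 12 h for all 10707 tested probe sets (gray) and the 74 transport probe sets ("members", red), with the median as a point and the quartiles as a bar. The transport genes' median rose from 0.00 to 0.34 while that of the array stayed within 0.03 of 0.

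Most changes were small in size. Against the vehicle array of 12 h, 2 of 74 probe sets were at least 2-fold higher (a second probe set of Ssr1, 1.38, and Sec23b, 1.05) and 0 were 2-fold lower, against 4.42% and 4.82% of all tested probe sets. A second probe set of Sec22b lay at the threshold, with 1.00 after rounding. Between the NaF arrays of 12 and 3 h, 38 of the 74 were higher and 3 lower at 12 h, against 24.6% and 24.5% of all.

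The comparison of all 3 NaF arrays with the 4 vehicle arrays called 1 of the 74 higher (Sec61a2) and 1 lower (Kdelr3), against 4.01% and 4.49% of all tested probe sets. This comparison counts the differences between times as spread. Without the NaF array of 3 h it called 15 higher (20.3%, against 13.5% of all tested probe sets) and 5 lower (6.76%, against 14.3%). Without that of 6 h it called none of the transport genes, and 0.654% and 0.551% of all. Without that of 12 h it called 3 higher and 2 lower, against 6.95% and 11.1% of all. Leaving out any vehicle array left no transport gene called in either direction, and at most 0.616% of all tested probe sets in 1 direction.

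**Figure D2:**
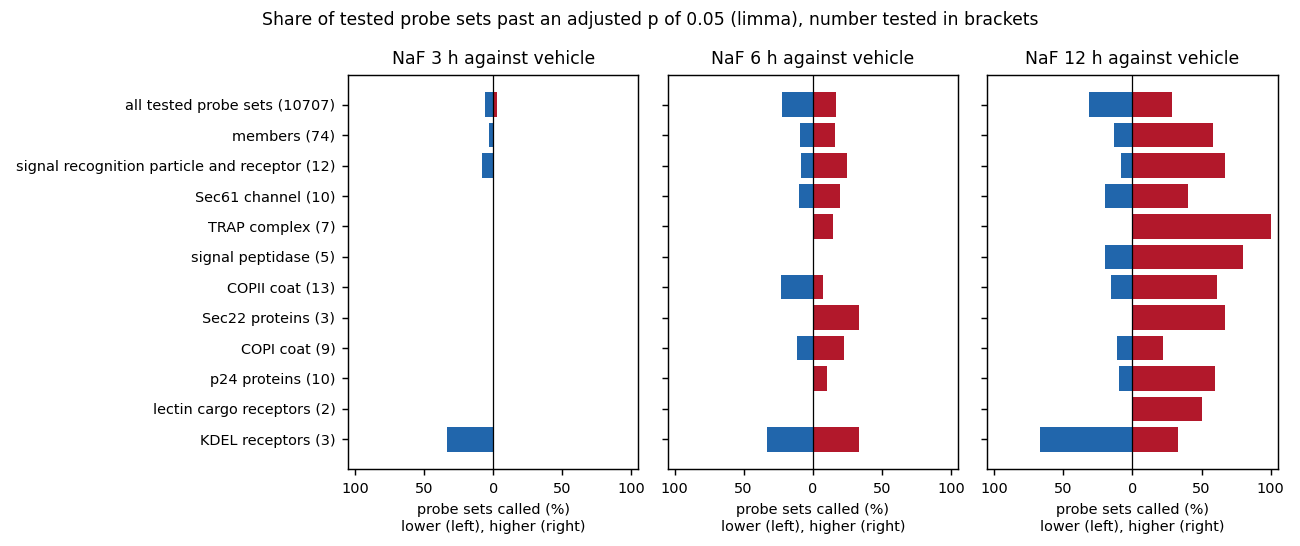
Percent of tested probe sets called lower (blue, to the left) or higher (red, to the right) than vehicle by limma at 3, 6 and 12 h, for the array, for all transport genes ("members") and for each group of them, with the number tested in brackets. Calls were few at 3 h, and at 12 h all 7 TRAP probe sets were higher while 2 of 3 KDEL receptors were lower. The dimmest TRAP probe set, of Ssr3, passed the filter only through its NaF signals.

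Promoters were searched because genes of the secretory route are known targets of the unfolded protein response, whose factors bind short elements in DNA. RefSeq sequences of the rat build GRCr8, from 250 bases before to 50 after the start, were at hand for 54 of 60 genes, in 56 promoters. Sec24c, Sar1a, Sec24d, Kdelr2, Sec61a1 and Sec61a2 had none, and all of these were called higher at 12 h. The promoters thus covered 24 of the 30 genes higher at 12 h, but all 9 lower and all 14 not called. On both strands, TGACGTGG, the unfolded protein response element, occurred in 5 of 56 (8.93%), against 0.595% of 33469 rat promoters and 0.898% of 6791 promoters of genes with a tested probe set. Its reverse strand contains CCACG, which alone occurred in 32 of 56 (57.1%), 31.6% and 49.2% of these sets. The ER stress response element (CCAAT and CCACG 9 bases apart) was in 0 of 56 and 0.236% of promoters of tested genes, its second form (ATTGG and CCACG 1 base apart) in 0 and 0.118%, and the C/EBP-ATF element TGATGCAA in 0 and 0.574%.

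Among the genes with a promoter at hand, those with TGACGTGG did not share a direction of change. Srp19 and Copa were higher at 12 h, Kdelr3 was lower, and Copb1 and Copb2 were not called. The match began 155 bases before the start in Srp19, 101 in Kdelr3 and 10 in Copb2, spanned the start in Copb1, and began at base 31 after it in Copa. A match is a description of letters and not a bound site. The 250 bases before the start are shown for the 3 genes in which the match lies wholly before it, on the plus strand, 5′ to 3′, with the match in capitals, which reads as its reverse complement CCACGTCA. They lie at chr18:26205638-26205887 (Srp19), chr7:112959382-112959631 (Kdelr3) and chr8:108040437-108040686 (Copb2).
Srp19: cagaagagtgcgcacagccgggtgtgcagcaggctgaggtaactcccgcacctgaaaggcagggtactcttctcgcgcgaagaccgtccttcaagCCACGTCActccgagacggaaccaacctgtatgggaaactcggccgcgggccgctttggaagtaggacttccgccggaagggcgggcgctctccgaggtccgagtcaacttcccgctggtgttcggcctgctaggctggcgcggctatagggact
Kdelr3: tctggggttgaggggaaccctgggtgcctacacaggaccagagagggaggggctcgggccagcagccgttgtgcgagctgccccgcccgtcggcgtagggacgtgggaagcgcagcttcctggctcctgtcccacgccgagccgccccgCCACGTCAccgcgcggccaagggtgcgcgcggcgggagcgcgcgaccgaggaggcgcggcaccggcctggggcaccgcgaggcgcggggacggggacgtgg
Copb2: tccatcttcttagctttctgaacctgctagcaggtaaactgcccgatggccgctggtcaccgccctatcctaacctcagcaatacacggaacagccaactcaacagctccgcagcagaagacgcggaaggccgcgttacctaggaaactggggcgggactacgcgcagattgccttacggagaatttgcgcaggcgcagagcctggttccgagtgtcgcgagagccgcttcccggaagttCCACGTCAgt

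The values of named genes are given in the order 0, 3, 6 and 12 h for vehicle and 3, 6 and 12 h for NaF, and the limma change is NaF minus the vehicle mean on the log2 scale with its standard error (SE). Signals of different genes are not compared, since probe sets differ in how brightly they bind. The counts by group below are to be read beside the shares over the array at 12 h, 28.8% of genes higher and 33.0% lower.

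In the signal recognition particle and its receptor, 5 of 8 tested genes rose at 12 h, 1 fell and 2 were not called, with a median same-time change of 0.32 over 12 probe sets. Srp72, a scaffold subunit that binds the particle's RNA together with Srp68, was 9.66, 9.72, 9.81 and 9.69 in vehicle and 9.86, 10.23 and 10.29 in NaF. All 3 NaF arrays were above the vehicle arrays, and limma called the 6 and 12 h arrays, by 0.51 (adjusted p = 0.0043) and 0.57 (SE 0.07, adjusted p = 0.0015). Both other tested probe sets of Srp72 were higher at 6 and 12 h too, by 0.70 and 0.62 at 12 h. Srp19, which helps Srp54 to join the particle, was 10.30, 10.31, 10.30 and 10.24 in vehicle and 10.23, 10.24 and 10.61 in NaF, so that only the 12 h array lay above vehicle (0.32, SE 0.06, adjusted p = 0.0053). The RefSeq sequence of its promoter is given above. Srp54a, the GTPase subunit that grips the signal sequence, was 8.80, 8.93, 8.85 and 8.78 in vehicle and 9.04, 8.92 and 9.14 in NaF (0.30 at 12 h, SE 0.08, adjusted p = 0.018). Dropping the 6 h vehicle array ended this call (adjusted p = 0.051), as did testing without the filter on dim probe sets (0.060). Its second tested probe set was not called, with 0.12.

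Srp9 moved the other way. With Srp14 it forms the end of the particle that slows translation, and it was 10.77, 10.76, 10.83 and 10.81 in vehicle and 10.51, 10.33 and 10.61 in NaF. Every NaF array lay below every vehicle array, with limma changes of -0.28 (adjusted p = 0.047), -0.47 (adjusted p = 0.0029) and -0.18 (SE 0.06, adjusted p = 0.041). The 3 h call was lost without any of the vehicle arrays (adjusted p 0.057 to 0.15), and the 12 h call without the vehicle array of 6 h (0.10) or 12 h (0.079). Both were also lost with array medians set equal (0.057 and 0.054) and without the filter (0.15 and 0.10). Its partner Srp14 was not called at 12 h, with a same-time change of 0.09. Srp68 and the receptor subunit Srprb rose, by 0.34 and 0.22 against the vehicle mean, while the receptor subunit Srpra, at 0.12, was not called.

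The Sec61 channel was divided, with 3 of 6 genes higher at 12 h, 2 lower and 1 not called, and a median same-time change of 0.04 over 10 probe sets. Sec61a1, the pore-forming alpha subunit, was 10.44, 10.47, 10.52 and 10.50 in vehicle and 10.52, 10.77 and 11.32 in NaF. It rose by 0.29 at 6 h (adjusted p = 0.015) and by 0.84 at 12 h (SE 0.06, adjusted p = 0.00028), and from 3 to 12 h of NaF by 0.80 (SE 0.08, adjusted p = 0.0013). The 6 h call was lost without the filter (adjusted p = 0.056) and with the mean of both probe sets (0.064). A dimmer probe set of Sec61a1 rose by 0.74 at 12 h. Sec61a2, a second alpha isoform, was 8.08, 8.21, 8.19 and 8.12 in vehicle and 8.44, 8.85 and 8.56 in NaF, above vehicle on all 3 NaF arrays and highest at 6 h (0.71, adjusted p = 0.0015, then 0.41 at 12 h, SE 0.07, adjusted p = 0.0047).

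Sec61b, the small beta subunit of the channel, was lower: 12.26, 12.36, 12.30 and 12.29 in vehicle and 12.18, 11.96 and 12.06 in NaF. It fell by 0.34 at 6 h (adjusted p = 0.010) and by 0.24 at 12 h (SE 0.06, adjusted p = 0.020), and leaving out the 6 h vehicle array ended the 12 h call (adjusted p = 0.057), as did testing without the filter (0.061). The gamma subunit Sec61g was 0.17 higher at 12 h, close to the threshold (adjusted p = 0.049). Sec62 and Sec63 assist the channel with chains that enter after their synthesis, Sec63 by recruiting a lumenal chaperone. Sec62 was not called on either probe set, and Sec63 was 0.28 lower on its brightest probe set and not called on its 2 others (-0.02 and 0.15).

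All 4 genes of the TRAP complex, which sits beside the Sec61 channel and helps weaker signal sequences to open it, rose at 12 h on all 7 probe sets, with a median same-time change of 0.51. None of the 4 genes was called at 3 or 6 h. Ssr2 was 9.79, 9.87, 9.92 and 9.87 in vehicle and 9.74, 9.78 and 10.52 in NaF. It was not called at 6 h (-0.08) and rose by 0.66 at 12 h (SE 0.07, adjusted p = 0.00071), so that the whole rise fell between 6 and 12 h. Ssr1 was 9.95, 10.05, 9.96 and 9.98 in vehicle and 10.05, 10.04 and 10.49 in NaF (0.50 at 12 h, SE 0.07, adjusted p = 0.0015). Its second probe set was 8.03, 8.12, 8.06 and 8.16 in vehicle and 8.13, 8.55 and 9.54 in NaF, a change of 1.45 (SE 0.07, adjusted p = 0.00016). The probe sets of Ssr1 thus agreed in direction at 12 h and differed in size, and the second was already higher at 6 h. Ssr4 was 11.46, 11.25, 11.34 and 11.29 in vehicle and 11.37, 11.60 and 11.74 in NaF (0.41 at 12 h, SE 0.09, adjusted p = 0.011). Ssr3 rose by 0.38 on its brightest probe set and by 0.40 and 0.96 on its others. The probe set with 0.96 had a vehicle mean of 6.83 and passed the filter only through its NaF signals, so its call is no separate support.

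Of the 5 signal peptidase genes, 4 rose at 12 h and 1 fell, and none was called at 3 or 6 h. Sec11c, one of the alternative catalytic subunits, was 9.73, 9.80, 9.87 and 9.85 in vehicle and 9.67, 9.91 and 10.52 in NaF. It rose by 0.70 at 12 h (SE 0.07, adjusted p = 0.00069), and by 0.85 from 3 to 12 h of NaF (SE 0.09, adjusted p = 0.0017). Spcs3, an accessory subunit, was 10.97, 10.97, 11.04 and 10.99 in vehicle and 11, 11.01 and 11.48 in NaF (0.49 at 12 h, SE 0.06, adjusted p = 0.0012). The 3 and 6 h NaF arrays were within the vehicle range, and only the 12 h array lay above it. Spcs2, which touches the neighboring translocon, was 10.56, 10.22, 10.51 and 10.51 in vehicle and 10.36, 10.54 and 10.89 in NaF (0.44 at 12 h, SE 0.14, adjusted p = 0.033). Leaving out the 0, 6 or 12 h vehicle array ended this call (adjusted p = 0.053, 0.067 and 0.065), as did testing without the filter (0.10), and the low vehicle value was that of 3 h, the array with the wide beta-actin gap. Sec11a, the other catalytic subunit, rose by 0.36 and the accessory subunit Spcs1 fell by 0.35.

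**Figure D3:**
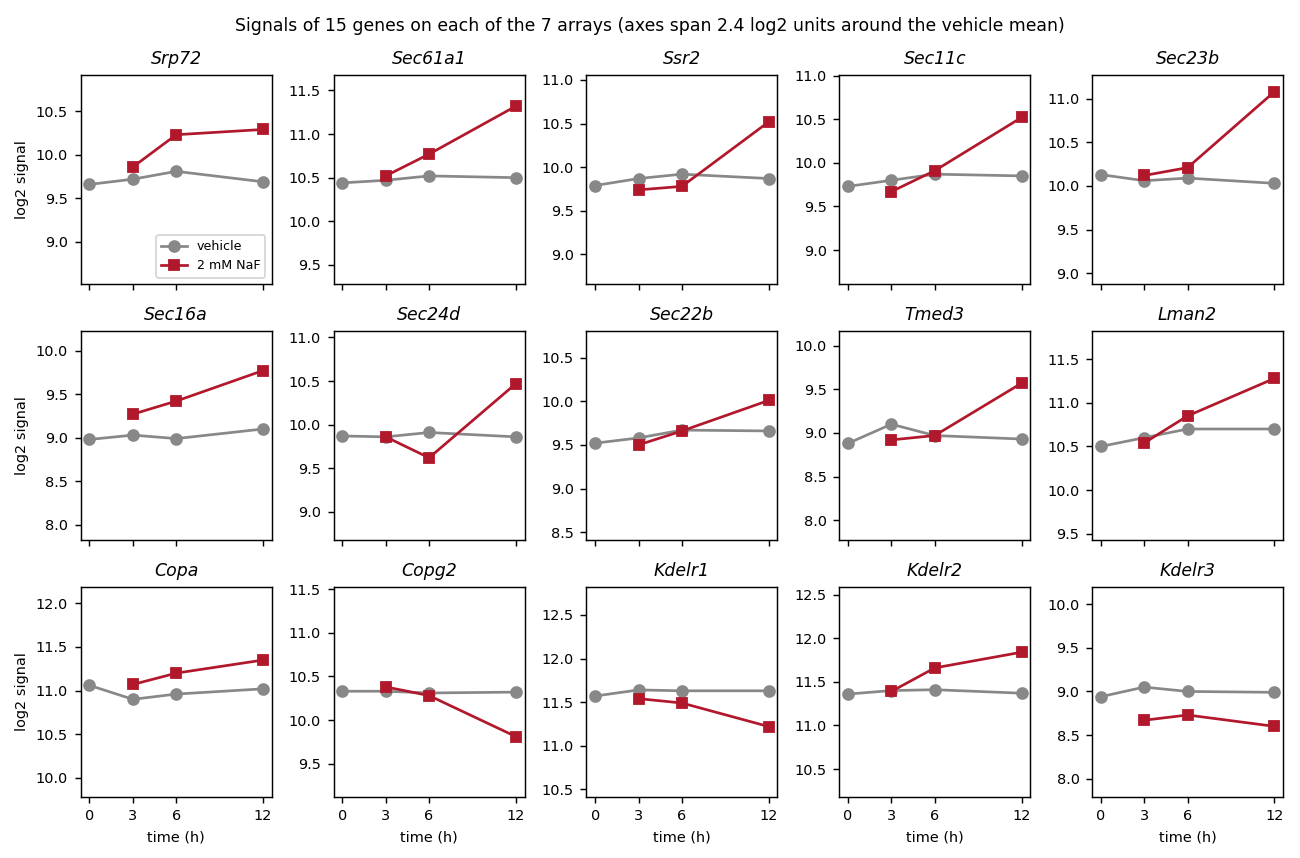
Log2 signals of 15 named genes (vertical axes, each spanning 2.4 units around the vehicle mean) against time in h (horizontal axes), with vehicle as gray circles and 2 mM NaF as red squares, 1 array per point. Sec23b and Ssr2 rose from the vehicle line mainly after 6 h, and Sec24d lay below that line at 6 h and above it at 12 h. Srp72 and Sec16a were above the vehicle line at every time, and Copg2, Kdelr1 and Kdelr3 ended below it.

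The COPII coat held the largest same-time change of any brightest probe set. Of 9 tested genes, 5 rose at 12 h, 1 fell and 3 were not called, with a median same-time change of 0.37 over 13 probe sets. Sec23b, an inner coat subunit that stimulates the GTPase Sar1, was 10.13, 10.06, 10.09 and 10.03 in vehicle and 10.12, 10.21 and 11.08 in NaF. It was 2.07-fold the vehicle array of 12 h, and the limma change was 1.00 (SE 0.06, adjusted p = 0.00021), after 0.04 and 0.13 at 3 and 6 h, which were not called. Sec16a, the scaffold of ER exit sites, was 8.98, 9.03, 8.99 and 9.10 in vehicle and 9.27, 9.42 and 9.77 in NaF. All 3 NaF arrays lay above vehicle, and the 6 and 12 h arrays were called, at 0.39 (adjusted p = 0.0082) and 0.75 (SE 0.07, adjusted p = 0.00050). A second Sec16a probe set rose by 0.82 at 12 h.

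Sec24 proteins select the cargo that enters COPII vesicles. Sec24d was 9.87, 9.86, 9.91 and 9.86 in vehicle and 9.86, 9.62 and 10.47 in NaF, so it fell by 0.26 at 6 h (adjusted p = 0.019) and rose by 0.59 at 12 h (SE 0.06, adjusted p = 0.00058). Leaving out the 6 h vehicle array ended the 6 h call (adjusted p = 0.060), as did testing without the filter (0.065). Sec24b, described here after its values were seen, was 9.45, 9.31, 9.43 and 9.36 in vehicle and 9.25, 8.95 and 9.49 in NaF. It was 0.43 lower at 6 h (adjusted p = 0.0079) and not called at 12 h (0.10), whereas its dimmer probe set was lower at both times, with -0.44 at 12 h. Both thus dipped at 6 h, and the brighter one lay just above the vehicle arrays at 12 h. Sec24c rose by 0.35 on its brightest probe set. Of the GTPases that start coat assembly, Sar1a rose by 0.35 and Sar1b fell by 0.30. The outer cage subunits Sec13 and Sec31a were not called, with -0.03 and 0.16. The tested probe set of Sec31a lay at 7.02 to 7.26 on the arrays, just above the filter, and its other probe set was too dim to be tested.

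Sec22b is a SNARE, one of the proteins that fuse vesicles with their target membrane, and Sec22a and Sec22c are its relatives. Sec22b was 9.52, 9.58, 9.67 and 9.66 in vehicle and 9.50, 9.66 and 10.01 in NaF (0.40 at 12 h, SE 0.08, adjusted p = 0.0065). Its second probe set was 9.05, 9.25, 9.18 and 9.06 in vehicle and 9.25, 9.64 and 10.05 in NaF (0.92, SE 0.10, adjusted p = 0.00071) and was called at 6 h as well. Sec22a varied in vehicle, at 7.54, 7.18, 7.77 and 7.70, and its NaF values of 7.53, 7.63 and 7.91 gave no call at any time (0.36 at 12 h, SE 0.22, adjusted p = 0.20). None of the 3 probe sets of Sec22c passed the filter.

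Most COPI subunits were not called at 12 h. Of 7 tested genes, 1 rose at 12 h, 1 fell and 5 were not called, with a median same-time change of 0.09 over 9 probe sets. Copa, the alpha subunit that binds retrieval signals of cargo, was 11.06, 10.90, 10.96 and 11.02 in vehicle and 11.07, 11.20 and 11.35 in NaF, with a rise of 0.37 at 12 h (SE 0.08, adjusted p = 0.0084). Copg2, an alternative gamma subunit, was 10.33, 10.33, 10.31 and 10.32 in vehicle and 10.38, 10.28 and 9.81 in NaF. It fell by 0.51 at 12 h (SE 0.06, adjusted p = 0.00079), the largest fall of any brightest probe set here, with all vehicle values between 10.31 and 10.33. Copg1, the other gamma subunit, was not called on its brightest probe set (0.06), while its dimmer one was 0.38 higher at 12 h. Cope, the epsilon subunit, was 9.46, 9.60, 9.45 and 9.52 in vehicle and 9.55, 9.83 and 9.71 in NaF, called at 6 h (0.32, adjusted p = 0.023) and not at 12 h (0.20, SE 0.08, adjusted p = 0.066). Without the vehicle array of 3 h the 12 h change of Cope was called (0.23, adjusted p = 0.025), and without that of 6 or 12 h its 6 h call was lost (0.066 and 0.057), as it was without the filter (0.079). Copz1 was higher at 6 h and Copb1 lower, and neither was called at 12 h. Copb2, with a match in the promoter shown above, was 10.64, 10.62, 10.57 and 10.59 in vehicle and 10.49, 10.57 and 10.55 in NaF.

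The p24 proteins span the membrane of COPI and COPII vesicles and help to load cargo such as lipid-anchored proteins. Of 7 tested genes, 5 rose at 12 h, 1 fell and 1 was not called, with a median same-time change of 0.30 over 10 probe sets. Tmed3 was 8.88, 9.10, 8.97 and 8.93 in vehicle and 8.92, 8.97 and 9.57 in NaF (0.60 at 12 h, SE 0.09, adjusted p = 0.0028). Tmed7 was 11.74, 11.75, 11.65 and 11.60 in vehicle and 11.82, 11.70 and 12.03 in NaF (0.34 at 12 h, SE 0.08, adjusted p = 0.012). In both genes the 12 h NaF array alone was called. Tmed10 was 10.88, 11, 11.02 and 10.96 in vehicle and 10.95, 10.88 and 10.55 in NaF, and it fell by 0.41 at 12 h (SE 0.07, adjusted p = 0.0046). Tmed4 rose by 0.42, Tmed9 by 0.34 and Tmed2 by 0.28, and Tmed1 was not called (0.20). A second Tmed2 probe set had a larger change of 0.90 without a call (SE 0.36, adjusted p = 0.077), since its vehicle values ran from 8.08 at 3 h to 9.04 at 12 h.

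The lectin receptors bind the mannose-rich sugars of glycoproteins in transit. Lman2 was 10.50, 10.60, 10.70 and 10.70 in vehicle and 10.54, 10.85 and 11.28 in NaF, and rose by 0.66 at 12 h (SE 0.09, adjusted p = 0.0020). Lman2l was 8.0, 8.05, 7.93 and 7.90 in vehicle and 8.11, 8.14 and 7.85 in NaF, with no call at any time (-0.12 at 12 h, SE 0.08, adjusted p = 0.25). Lman1, the receptor that carries blood coagulation factors out of the ER, was too dim to be tested, at 6.24, 6.47, 6.47 and 6.47 in vehicle and 6.23, 6.68 and 7.24 in NaF.

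KDEL receptors catch escaped ER chaperones in the Golgi and return them in COPI vesicles, and the 3 genes differed in direction. Kdelr2 was 11.36, 11.40, 11.41 and 11.37 in vehicle and 11.39, 11.66 and 11.84 in NaF, and rose by 0.27 at 6 h (adjusted p = 0.015) and 0.45 at 12 h (SE 0.06, adjusted p = 0.0014). Its 6 h call was lost without the filter (adjusted p = 0.055). Kdelr1 was 11.57, 11.64, 11.63 and 11.63 in vehicle and 11.54, 11.49 and 11.22 in NaF, and fell by 0.40 at 12 h (SE 0.06, adjusted p = 0.0024). Kdelr3, whose promoter sequence is given above, was 8.94, 9.05, 9.0 and 8.99 in vehicle and 8.67, 8.73 and 8.60 in NaF. All 3 NaF arrays lay below all vehicle arrays, with limma changes of -0.32 (adjusted p = 0.039), -0.26 (adjusted p = 0.024) and -0.39 (SE 0.07, adjusted p = 0.0036). The 3 h call of Kdelr3 ended when the 3, 6 or 12 h vehicle array was left out (adjusted p = 0.056, 0.14 and 0.10), and its 6 h call without that of 6 or 12 h (0.074 and 0.057). Without the filter both were lost (0.14 and 0.081), and with array medians set equal that of 3 h was (0.051). From 3 to 12 h of NaF, Kdelr2 rose by 0.45 (SE 0.07, adjusted p = 0.0052) and Kdelr1 fell by 0.32 (SE 0.08, adjusted p = 0.016), while Kdelr3 was not called (-0.07, SE 0.08, adjusted p = 0.53).

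**Figure D4:**
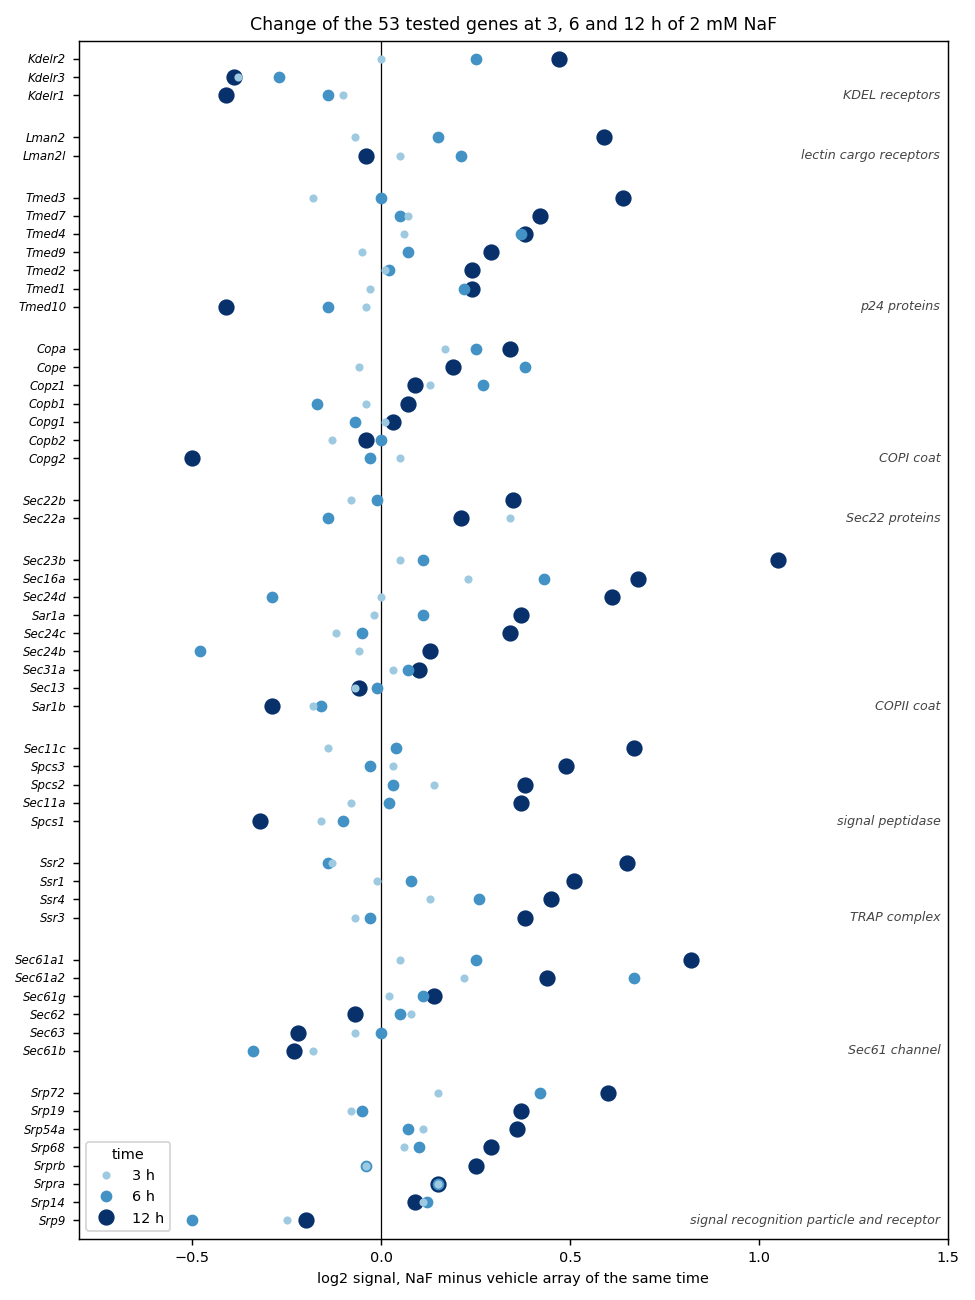
Same-time changes (NaF minus vehicle, log2, horizontal axis) of the 53 tested genes at 3 h (small, light), 6 h (middle) and 12 h (large, dark), 1 dot per gene and time, by group. At 12 h the dots ran from -0.50 (Copg2) to 1.05 (Sec23b), and each group except the TRAP complex and the Sec22 proteins held genes on both sides of 0.

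For 18 genes more than 1 probe set was tested. At 12 h all probe sets were higher in 10 of them, the call was the same on every probe set in 12, and none had calls in opposite directions. Ssr3 is among the 10, with the probe set that passed the filter only through its NaF signals. Such counts over the array are not given, so these are a description and say nothing particular about the group. In 15 of the 18 a dimmer probe set had the larger size of change. The dimmer probe set of largest change was taken, and gaps as small as 0.02 (Sec62) counted. The gap was above 0.3 in Ssr1, Tmed2, Ssr3, Sec22b, Sec24b and Copg1, and that of Ssr3 came from the probe set just described. Sec61a1, Sec63 and Srp54a were the 3 in which the brightest probe set changed most.

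**Figure D5:**
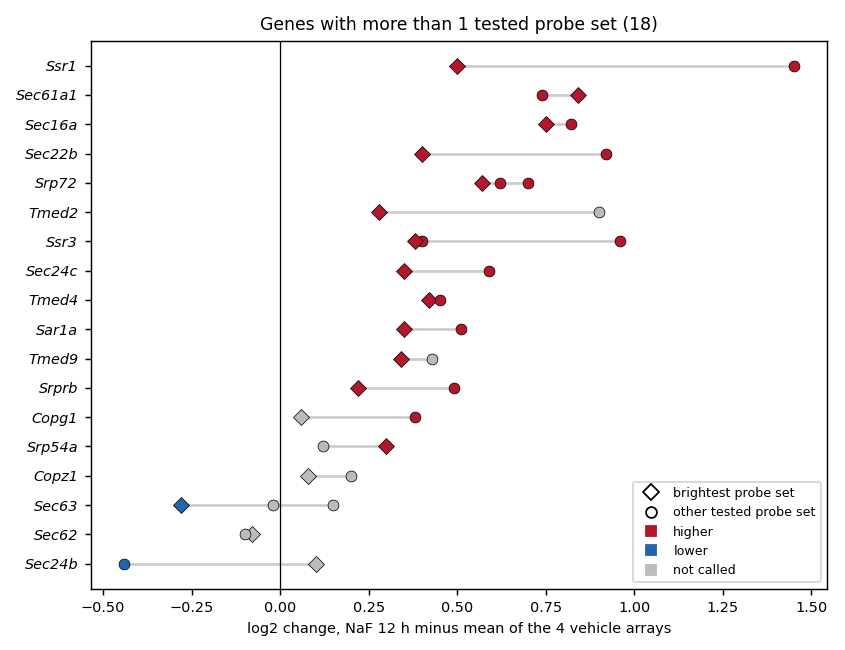
Limma change at 12 h (log2, NaF minus the mean of the 4 vehicle arrays, horizontal axis) of every tested probe set of the 18 genes with more than 1, with the brightest as a diamond, others as circles, and higher, lower and uncalled probe sets in red, blue and gray. No gene had a red and a blue point, and Ssr1 ran from 0.50 to 1.45.

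Other genes of the same route, in lists not chosen by the symbol rule, gave a mixed account, with 27 of 64 tested genes higher at 12 h (42.2%, against 28.8% of all genes tested), 10 lower (15.6%, against 33.0%) and 27 not called. Among SNAREs and their partners between ER and Golgi, 10 of 12 rose and none fell, led by the Golgi SNAREs Bet1l (0.82) and Stx5 (0.78). Among factors of ER exit sites, 5 of 13 rose (38.5%) and 4 fell (30.8%), not far from the shares over the array. Mcfd2, the partner of Lman1 in carrying coagulation factors, was 9.98, 9.87, 9.98 and 9.98 in vehicle and 9.74, 9.90 and 11.11 in NaF, a rise of 1.16 (SE 0.07, adjusted p = 0.00019). Among COPI regulators and Arf GTPases, 4 of 9 rose (44.4%) and 3 fell (33.3%): Arfgap3, which ends the Arf cycle on Golgi membranes, rose by 1.28, Arcn1, the delta subunit of COPI, rose by 0.27, and Arf5 fell by 0.67. Of 15 tethers that hold vesicles at the Golgi, 5 rose (33.3%) and 2 fell (13.3%), with Uso1 at 1.05 and Trappc1 at -1.21. Routes of insertion beside Sec61 had 3 of 15 genes higher and 1 lower, both below the shares over the array. In clathrin coats and adaptors, which act after the Golgi and at the cell surface, 2 of 20 genes rose and 5 fell, also below those shares, with Gga2 at -1.0 and a median same-time change of -0.07 over 26 probe sets.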

How the data were processed

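The authors labeled the pooled RNA, hybridized and scanned the arrays and analyzed them in GeneSpring GX, and the deposited values are log2 signals per probe set that were already brought to a common scale. Its version and the normalization method are not stated in the paper or the labels. The values were used as deposited. No counts underlie an array, and the number of arrays limits the precision. Probe sets were named through the platform annotation: 20832 had 1 symbol, 436 several and 9831 none, and 2 probe sets with several symbols, among them one for a receptor subunit, were left out. All 60 genes matched a RefSeq gene. The 57 control probe sets were removed and probe sets with a mean log2 signal under 7 were not tested.

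Limma 3.58.1 (R 4.3.3) was used for tests, with lmFit, eBayes and the Benjamini-Hochberg adjustment over 10707 probe sets. One fit took the 4 vehicle arrays as a group and each NaF array as a group of 1, with 3 residual and 2.79 prior degrees of freedom, and another compared 3 NaF with 4 vehicle arrays. The 0 h array is labelled a control with vehicle alone, its time came from the study's methods, and a legend in the paper calls the control cells not treated. Without it, 38 of the 74 transport probe sets were called higher at 12 h and 10 lower. The shares over all tested probe sets in this setting are not given, so these counts are not set against the array. The median standard error of a NaF array against the vehicle mean was 0.0825 and the median SD over vehicle arrays 0.0768. The scripts were tested on simulated data.

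Named genes were, in each group, the 3 with the largest same-time change at 12 h, plus genes called at 3 h and genes with probe sets called in opposite directions; others are named with their 12 h change only, except where stated. The genes, lists and tests were chosen with earlier results of these data known. Alternatives were other filters, scalings and baselines, a variance trend, time as a block, 1 value per gene and each array left out.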

Additional observations from a re-analysis of the deposited data

Results flagged for a closer look

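Among genes with 4 vehicle arrays, 1 vehicle value stood far from the other 3 in Srp19 (10.24 at 12 h) and in Spcs2 (10.22 at 3 h). Chance sets about 1 in 20 groups apart in this way, and 29 genes were examined.

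For 19 of the 29 named genes limma called a difference between the NaF arrays of 12 and 3 h, 16 higher and 3 lower at 12 h, while 24.6% and 24.5% of all tested probe sets were called so. Most of these genes were named for a large change at 12 h and the comparison is of 1 array with 1 array, so the values are a description and the count says nothing about the group. The signal was higher at 12 h in subunits that bring chains into the ER: Srp72 (0.43), Srp19 (0.38), Sec61a1 (0.80), Ssr2 (0.78), Ssr1 (0.44), Ssr4 (0.37), Sec11c (0.85), Spcs3 (0.49) and Spcs2 (0.53). It was also higher in the transport genes Sec23b (0.97), Sec16a (0.50), Sec24d (0.61), Sec22b (0.51), Tmed3 (0.65), Lman2 (0.75) and Kdelr2 (0.45). It was lower at 12 h in Copg2 (-0.56), Tmed10 (-0.40) and Kdelr1 (-0.32).

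Lman1, left out of the tests as too dim, reached 7.24 on the NaF array of 12 h, above its vehicle arrays.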

How the results depend on the processing

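The 43 calls of higher signal at 12 h were 35 to 46 under the alternatives, with 35 without a filter and 38 to 46 without 1 vehicle array (46 higher and 9 lower without that of 3 h). Shares over all tested probe sets are not given for these alternatives. Without a filter on dim probe sets, calls fell at 3 h to 0 lower, at 6 h to 4 lower, at 12 h to 5 lower, in 12 against 3 h of NaF to 23 higher and 1 lower, and in 3 against 4 arrays to 0 and 0. The filter on the highest signal gave 1 lower at 3 h. Setting array medians equal gave 0 lower at 3 h and 2 higher in 3 against 4 arrays. Quantile normalization gave 1 higher at 3 h (Sec61a2), 5 lower in 12 against 3 h and 4 higher in 3 against 4. A variance trend gave 5 lower in 12 against 3 h and 2 lower in 3 against 4. Without 1 vehicle array, lower calls were 0 to 1 at 3 h and 4 to 7 at 6 h, with 4 without that of 6 h. In 3 against 4 arrays, without any 1 array, there were 0 to 15 higher and 0 to 5 lower.

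With time as a block, the pairing of NaF and vehicle arrays of the same time left 0 calls in both directions in the comparison of NaF with vehicle, over 3 pairs, and 0 of 10707 in all. The median change of 0.00 at 3 h was 0.04 after quantile normalization and -0.02 against the vehicle mean. That of 0.05 at 6 h was 0.03 without a filter, 0.08 against the vehicle mean, 0.10 against the vehicle array of 0 h and 0.03 for the brightest probe set of each gene. That of 0.34 at 12 h was 0.26 without a filter, 0.36 with equal medians, 0.31 after quantile normalization, 0.29 for brightest probe sets and 0.30 for gene means. Each of these differed from the reported value by more than 0.017, the SD of the transport genes' median level over the vehicle arrays. Scaling moved the median of all tested probe sets by 0.03 at most at 12 h. Most named genes were chosen for a large change at 12 h, so the next count does not stand for the other calls. Of 26 named genes called at 12 h, 22 kept that call in all 8 alternatives run for single genes. These were equal medians, quantile normalization, no filter, gene means and each vehicle array left out. Srp54a, Sec61b, Spcs2 and Srp9 lost the call in at least 1. The cause of these differences was not tested.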

Other observations

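Several dimmer probe sets of transport genes were lower on the vehicle array of 3 h than on the other vehicle arrays. Examples are the second probe sets of Tmed2 (8.08 against 8.76 to 9.04) and Sec61a1 (7.64 against 7.98 to 8.16), as well as Sec22a (7.18 against 7.54 to 7.77). Others were highest on that vehicle array, such as the second probe sets of Sec24b (7.53 against 7.17 to 7.51) and Sec22b (9.25 against 9.05 to 9.18). Neither kind was counted. That array had the widest gap between 3' and 5' control signals, 2.83 for beta-actin and 0.51 for GAPDH, and the NaF array of 3 h came next with 2.39 and 0.38. A part of this gap in the signals was not tested.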
